A study of Mus musculus with 6 samples.

Results

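The genes described here are 10 transcripts known to be induced by low oxygen, Vegfa, Adm, Slc2a1, Hk2, Pdk1, Bnip3, Egln3, Ddit4, Ankrd37 and Ndrg1. They were taken by gene symbol from 34245 listed genes, and all 10 were found. Poly(A) RNA of whole pancreatic islets was sequenced from C57BL/6J mice aged 5 weeks. The labels put 3 libraries in each group and do not say whether one holds a single animal. In the 3 KO libraries a floxed Abca12 allele (tm1d after deletion) had been removed by Rip1-Cre, a recombinase under the rat insulin promoter, which acts in beta cells. The 3 HET controls also carried Rip1-Cre and were heterozygous for the floxed allele, so a Cre effect common to all 6 libraries cannot be seen in this comparison. Only the Cre-expressing cells lose the gene, whereas each library holds RNA of all islet cells. In such bulk RNA, fewer cells of a type and less RNA per cell cannot be told apart.

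Cells sense oxygen through the HIF transcription factors. With oxygen present, prolyl hydroxylases of the EGLN family mark the HIF alpha subunits, and the VHL ubiquitin ligase removes them; when oxygen falls, the alpha subunits pair with ARNT and bind a short element with the core ACGTG or GCGTG. The targets bring in blood vessels and glucose, divert pyruvate from the mitochondria and limit growth. Islets have a dense capillary bed that depends on VEGF-A from beta cells, and mouse beta cells in which HIF is active because Vhl was deleted secrete insulin poorly in response to glucose.

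The upstream sequences are shown because the HIF element lies there in many targets. RefSeq start sites were available for 9 of the 10 genes (GRCm38.p6), as 11 windows of 250 bases upstream of a start. The cores ACGTG and GCGTG and their reverse complements CACGT and CACGC were searched, so that both strands were covered and overlapping matches such as CACGTG counted for each core. A core was present in 9 of the 11 windows, against 38.6% of 32851 such windows over all genes, and ACGTG on either strand in 7 of the 11, against 16.6%. The match is a description of these letters and no evidence of binding. Bnip3, Ddit4, Ankrd37 and Adm, which were higher in the same 3 libraries than in the other 3, and Slc2a1, which was not, are printed from 5′ to 3′ on the gene's strand, with the matches in capitals. Bnip3 is at chr7:138909507-138909756 (minus strand), Ddit4 at chr10:59951771-59952020 (minus), Ankrd37 at chr8:45999851-46000100 (minus), Adm at chr7:110627407-110627656 (plus) and Slc2a1 at chr4:119108495-119108744 (plus).
Bnip3: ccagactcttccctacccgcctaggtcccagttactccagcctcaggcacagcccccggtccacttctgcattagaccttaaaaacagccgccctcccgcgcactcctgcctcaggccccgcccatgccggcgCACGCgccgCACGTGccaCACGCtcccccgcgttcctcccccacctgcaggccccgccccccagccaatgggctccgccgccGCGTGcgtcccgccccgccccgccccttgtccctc
Ddit4: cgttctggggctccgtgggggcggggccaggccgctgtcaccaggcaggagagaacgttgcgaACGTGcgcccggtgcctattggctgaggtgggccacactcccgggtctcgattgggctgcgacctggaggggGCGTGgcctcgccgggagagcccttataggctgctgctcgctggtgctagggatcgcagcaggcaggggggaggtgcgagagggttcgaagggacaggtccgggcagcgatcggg
Ankrd37: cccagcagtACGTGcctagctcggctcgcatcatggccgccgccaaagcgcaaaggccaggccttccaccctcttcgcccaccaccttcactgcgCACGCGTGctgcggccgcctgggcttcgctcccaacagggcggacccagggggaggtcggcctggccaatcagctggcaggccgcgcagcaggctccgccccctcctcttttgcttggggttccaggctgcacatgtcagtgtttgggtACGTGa
Adm: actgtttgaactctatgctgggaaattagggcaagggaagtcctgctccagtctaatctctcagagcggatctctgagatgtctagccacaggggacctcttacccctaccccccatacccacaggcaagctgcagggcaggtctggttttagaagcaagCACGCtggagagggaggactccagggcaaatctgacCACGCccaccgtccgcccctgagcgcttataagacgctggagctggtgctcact
Slc2a1: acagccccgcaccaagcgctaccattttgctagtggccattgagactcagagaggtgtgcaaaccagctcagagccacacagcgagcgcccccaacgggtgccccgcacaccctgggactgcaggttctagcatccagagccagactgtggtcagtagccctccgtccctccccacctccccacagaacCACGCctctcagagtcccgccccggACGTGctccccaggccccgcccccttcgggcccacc

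Bnip3 held 5 matches, all within 117 bases of the start, including the palindrome CACGTG. Ankrd37 held 4, one of them 6 bases from the RefSeq start, Ddit4, Adm and Slc2a1 held 2 each, and the matches of Adm were both of the GCGTG type. That start of Ankrd37 lies inside the annotated span of the gene (chr8:45996902-46005707, minus strand), so its window is within the gene. Vegfa, not printed, held its matches only in a window within the gene (chr17:46025164-46025413). Its window next to the annotated start of the gene (chr17:46032378-46032627) held none.

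The libraries were of similar depth. Their totals, the denominators of the RPM values (reads scaled to a common library total), were 27447026 to 35511008 reads. Abca12 itself had 2 reads in KO 1 and none in the other 5 libraries, so the genotype could not be checked from it. Summed beta cell markers, led by the insulin genes, amounted to 109106 to 141893 RPM over KO libraries and 110478 to 117740 RPM over HET libraries. None of the 11 was at 0 in every library. Acinar markers, of exocrine tissue carried along, summed to 858 to 13066 RPM over KO libraries and 435 to 31326 RPM over HET libraries. KO 2 held both Xist (459 RPM) and the Y-linked Ddx3y (49.8 RPM), a combination not found in the other libraries. KO 1 and HET 2 held Xist without Ddx3y, and KO 3, HET 1 and HET 3 held Ddx3y with Xist at no more than 0.162 RPM. Without KO 2, the log2 differences between KO and HET given below were -0.16 for Vegfa, 0.09 for Adm, -0.02 for Slc2a1, -0.47 for Hk2, -0.19 for Pdk1, 0.24 for Bnip3, -0.12 for Egln3, -0.02 for Ddit4, 0.15 for Ankrd37 and 0.11 for Ndrg1, and limma called none of these genes.

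For none of the hypoxia-induced genes was a difference between KO and HET islets found beyond the spread between libraries. KO and HET libraries overlapped for all 10, whereas the groups did not overlap for 5.74% of the 14238 genes tested. The 7 genes averaging 1 RPM or more over the libraries entered limma's moderated test on log2(RPM + 1), with Benjamini-Hochberg adjustment over all genes tested. Limma called 0 of the 7, and 0% of all genes tested, at an adjusted p under 0.05, and the lowest adjusted p of the 7 was 0.9998. At an unadjusted limma p under 0.05 the counts were again 0 of 7, and 1.76% of all genes tested. Of the 7, 5 had a higher and 2 a lower mean in KO, the median log2 difference being 0.07, against 51.4% higher and a median of 0.01 over all genes tested. The median of the 7 turned to -0.0596 without HET 1 and to -0.015 without KO 2. Without HET 2 the median was -0.035, but Hk2 then passed the filter too, so this value is not of the 7 alone. The 95% intervals of the 7 lay between -0.56 and 0.79 on the log2(RPM + 1) scale, or between 0.678 and 1.73-fold. These bounds are the outermost of 7 intervals, and each gene's own interval is given with its values. The folds are of RPM + 1, which understates the fold in RPM of a low gene such as Ankrd37.

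**Figure D1:**
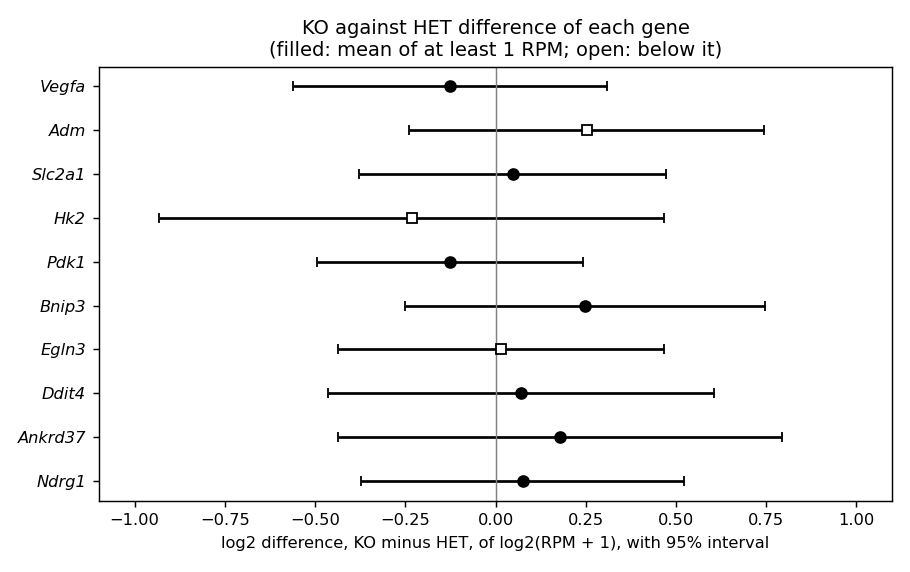
Difference of each hypoxia-induced gene between KO and HET islets, as KO minus HET of log2(RPM + 1), with limma's 95% interval. Filled points mark the 7 genes averaging 1 RPM or more and open squares the 3 below it; every interval includes 0, and the point estimates lie between -0.23 and 0.25.

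Vegfa, which encodes the main growth factor of blood vessels, was the most abundant of the 10 genes (ENSMUSG00000023951.17, chromosome 17, 46016993 to 46032369, GRCm38). It had 282, 285 and 251 RPM in KO 1 to 3, against 277, 270.4 and 350.2 RPM in HET 1 to 3. HET 3 stood highest and KO 3 lowest, and the other 4 libraries lay close together. The means were 273 ± 19.1 RPM in KO islets and 299 ± 44.3 RPM in HET islets (n = 3 each, ± SD), which makes a log2 difference of -0.13 (95% interval -0.56 to 0.31). Without HET 3 that difference was -0.01. The receptors through which VEGF-A acts on endothelium did not pass the test either. Kdr, the main signalling receptor, had 40.5 ± 9.12 RPM in KO islets and 49.6 ± 4.39 RPM in HET islets (log2 difference -0.30, interval -0.76 to 0.15), and Flt1, a high-affinity receptor that also acts as a decoy, had 38.1 ± 9.81 and 42.2 ± 12.1 RPM in KO and HET (-0.14, -0.77 to 0.48). The 9 endothelial markers together summed to 217 to 268 RPM over KO libraries and 214 to 241 RPM over HET libraries. These sums overlap.

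Adm encodes adrenomedullin, a secreted peptide that widens and stabilises vessels (ENSMUSG00000030790.15, chromosome 7, 110627661 to 110629820). It was near the limit of counting, with 20, 27 and 3 reads in KO 1 to 3, against 13, 7 and 8 reads in HET 1 to 3. These correspond to 0.685, 0.908 and 0.109 RPM in KO, and 0.42, 0.197 and 0.241 RPM in HET. The KO group thus held both the highest libraries and the lowest one, and the exact 95% Poisson interval of KO 3, which covers counting error only, ran from 0.0225 to 0.319 RPM. The means were 0.567 ± 0.412 RPM in KO islets and 0.286 ± 0.118 RPM in HET islets (n = 3 each, ± SD). With no filter on low values the log2(RPM + 1) difference was 0.25 (-0.24 to 0.74), a scale that shrinks differences at this level, and limma's adjusted p was 0.98. Leaving out 1 library gave 0.092 (without KO 2) to 0.48 (without KO 3). Its paralogue Adm2, or intermedin, had 3.42 ± 1.08 RPM in KO islets and 7.06 ± 4.62 RPM in HET islets, with a log2 difference of -0.71 (-1.76 to 0.34). Calcrl, the receptor shared by these peptides, had 3.07 ± 0.244 and 3.16 ± 0.664 RPM in KO and HET. Of 10 VEGF and adrenomedullin receptor genes tested, limma called 0, 4 had higher and 6 lower means in KO, and the median log2 difference was -0.06. That median turned to 0.054 without KO 3, to 0.048 without HET 1 and to 0.015 without HET 2. The summed level of these genes was 191, 167 and 183 RPM in KO 1 to 3, against 198, 199 and 209.7 RPM in HET 1 to 3. The sums did not overlap between the groups, whereas each of the 10 genes did. Sums of integrated stress response targets and of glucocorticoid-induced genes, both taken up below, did not overlap either. The same held for the list of hexokinases, glucose transporters and pyruvate dehydrogenase kinases. How often sums of other genes separate was not computed.

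Slc2a1 encodes GLUT1, the glucose transporter that hypoxic cells raise (ENSMUSG00000028645.11, chromosome 4, 119108711 to 119137983). It had 27.9, 30.6 and 25.4 RPM in KO 1 to 3, against 21.9, 29.5 and 30.3 RPM in HET 1 to 3. HET 1 was the lowest library and the other 5 lay between 25.4 and 30.6 RPM. The means of 28.0 ± 2.60 RPM in KO islets and 27.2 ± 4.64 RPM in HET islets (n = 3 each, ± SD) gave a log2 difference of 0.05 (-0.38 to 0.47). It turned to -0.10 without HET 1 and to -0.02 without KO 2. Slc2a2 encodes GLUT2, the main glucose transporter of mouse beta cells. It had 338 ± 47.8 RPM in KO islets and 242 ± 33.8 RPM in HET islets, and every KO library was above every HET library. Such a lack of overlap, in either direction, was found for 5.74% of all genes tested. The log2 difference of Slc2a2 was 0.48 (0.016 to 0.94), and limma's adjusted p was 0.9998.

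Hk2 encodes hexokinase 2, a high-affinity enzyme that starts glycolysis (ENSMUSG00000000628.10, chromosome 6, 82725025 to 82774454). There were 11, 44 and 18 reads in KO 1 to 3, against 50, 18 and 44 reads in HET 1 to 3. In RPM these were 0.377, 1.48 and 0.656 in KO, and 1.62, 0.507 and 1.33 in HET. Both groups thus held libraries below 0.7 and above 1.3 RPM. The mean over all 6 libraries was 0.994 RPM, just under the filter. Without the filter the log2(RPM + 1) difference was -0.23 (-0.93 to 0.47) and limma's adjusted p was 0.98. Leaving out 1 library gave -0.47 (without KO 2 or HET 2) to -0.047 (without KO 1).

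Pdk1 encodes a kinase that switches off pyruvate dehydrogenase and so keeps pyruvate out of the mitochondria (ENSMUSG00000006494.11, chromosome 2, 71873224 to 71903858). It had 18.0, 21.5 and 19.6 RPM in KO 1 to 3, against 23.7, 20.5 and 20.5 RPM in HET 1 to 3. KO 1 was lowest and HET 1 highest, and KO 2 lay above HET 2 and HET 3. The means were 19.7 ± 1.73 RPM in KO islets and 21.5 ± 1.83 RPM in HET islets (n = 3 each, ± SD), which makes a log2 difference of -0.13 (-0.50 to 0.24). This was the steadiest of the 10 genes, with a coefficient of variation over the 6 libraries of 9.21%, against a median of 21.3% over all genes tested. Of the other kinases of the family, Pdk2 and Pdk3 had log2 differences of -0.08 and -0.16. Of 12 tested genes for other hexokinases, glucose transporters, and pyruvate dehydrogenase subunits, kinases and phosphatases, 7 had a higher and 5 a lower mean in KO (median log2 difference 0.03). Limma called none of the 12. Of them, 1, Slc2a2, had an unadjusted limma p under 0.05, against 1.76% of all genes tested. The groups did not overlap for 3 of the 12, against 5.74% of all genes tested.

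**Figure D2:**
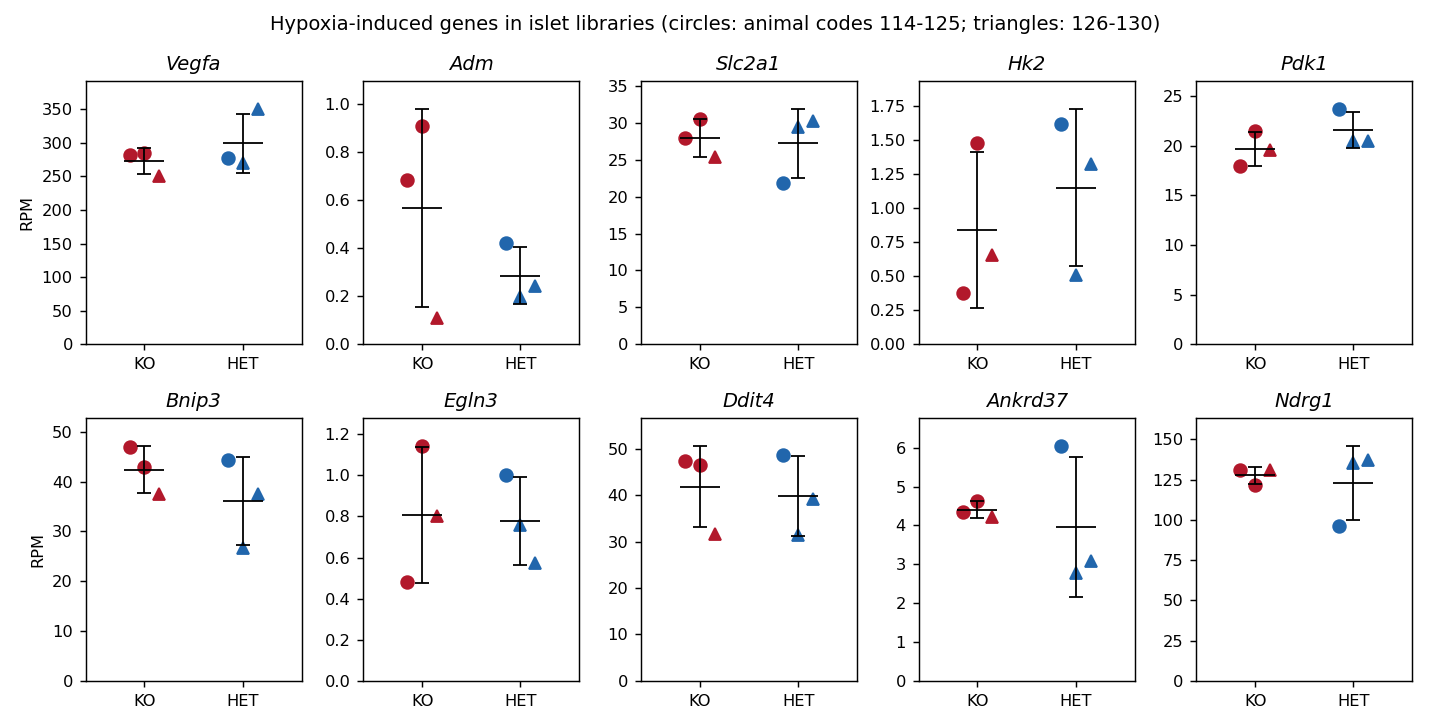
Level of each hypoxia-induced gene in RPM (linear axes from 0), with KO left of HET; points are single libraries, bars the mean ± SD of 3, circles animal codes B114 to B125 and triangles B126 to B130. KO and HET points overlap in every panel, and for Bnip3, Ddit4, Ankrd37 and Adm the circles lie above the triangles.

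Bnip3 encodes a mitochondrial outer-membrane protein that marks mitochondria for autophagy (ENSMUSG00000078566.8, chromosome 7, 138890836 to 138909519). It had 46.9, 42.8 and 37.5 RPM in KO 1 to 3, against 44.3, 26.8 and 37.4 RPM in HET 1 to 3. HET 2 was lowest, and KO 3 and HET 3 were almost equal. The means were 42.4 ± 4.74 RPM in KO islets and 36.2 ± 8.84 RPM in HET islets (n = 3 each, ± SD), which makes a log2 difference of 0.25 (-0.25 to 0.75), the largest among the 7 genes tested. Without HET 2 it was 0.05. Exons of Gm45507, on the opposite strand, overlap Bnip3. Gm45507 had 19.2, 18.0 and 18.3 RPM in KO 1 to 3, against 19.9, 11.3 and 15.4 RPM in HET 1 to 3, and the labels do not state whether counting used strand, so reads of the overlap cannot be told apart. The related mitophagy receptor Bnip3l had 36.7 ± 1.46 RPM in KO islets and 33.2 ± 1.89 RPM in HET islets, with a log2 difference of 0.14 (-0.20 to 0.48).

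Ddit4 encodes REDD1, an inhibitor of the growth kinase mTORC1 that is induced by hypoxia, glucocorticoids and the integrated stress response (ENSMUSG00000020108.4, chromosome 10, 59949669 to 59951834). It had 47.3, 46.5 and 31.7 RPM in KO 1 to 3, against 48.7, 31.5 and 39.1 RPM in HET 1 to 3. KO 1, KO 2 and HET 1 lay close together at the top, and KO 3 and HET 2 were the lowest. The means were 41.8 ± 8.78 RPM in KO islets and 39.8 ± 8.60 RPM in HET islets (n = 3 each, ± SD), which makes a log2 difference of 0.07 (-0.47 to 0.61). It turned to -0.03 without KO 1, to -0.02 without KO 2 and to -0.08 without HET 2. Among 13 other targets of the integrated stress response, 12 had the lower mean in KO, the median log2 difference was -0.69, and limma called none. Of these 13, 3 did not overlap between the groups, against 5.74% of all genes tested. They were the serine synthesis gene Phgdh and the stress regulators Nupr1 and Cebpb, all lower in KO, whereas Ddit4 overlapped between the groups. Among 11 glucocorticoid-induced genes, 6 had a higher and 5 a lower mean in KO (median 0.02).

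Egln3 encodes PHD3, the prolyl hydroxylase that HIF itself induces and that feeds back on HIF (ENSMUSG00000035105.5, chromosome 12, 54178981 to 54203860). It had 14, 34 and 22 reads in KO 1 to 3, against 31, 27 and 19 reads in HET 1 to 3. These were 0.48, 1.14 and 0.802 RPM in KO, and 1.00, 0.76 and 0.573 RPM in HET. KO libraries lay at both ends of the range. The means were 0.808 ± 0.332 RPM in KO islets and 0.778 ± 0.215 RPM in HET islets (n = 3 each, ± SD); without the filter the log2(RPM + 1) difference was 0.01 (-0.44 to 0.47), with a limma adjusted p of 0.997. It turned to -0.12 without KO 2, to -0.07 without HET 3 and to -0.01 with median-of-ratios scaling. The other HIF hydroxylases, which are less responsive to hypoxia, did not pass the test either. Egln1 had 30.9 ± 6.34 RPM in KO islets and 35.4 ± 8.43 RPM in HET islets (log2 difference -0.18, -0.72 to 0.37), and Egln2 had 41.2 ± 6.53 and 42.4 ± 10.4 RPM in KO and HET (-0.02, -0.55 to 0.51).

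Ankrd37 encodes a small ankyrin-repeat protein that is a HIF target (ENSMUSG00000050914.16, chromosome 8, 45996902 to 46005707). It had 4.35, 4.64 and 4.23 RPM in KO 1 to 3, against 6.05, 2.79 and 3.08 RPM in HET 1 to 3. The KO libraries were close together and lay between HET 1, the highest, and the other 2 HET libraries. The means were 4.41 ± 0.212 RPM in KO islets and 3.97 ± 1.80 RPM in HET islets (n = 3 each, ± SD), which makes a log2 difference of 0.18 (-0.44 to 0.79). Without HET 1 it was 0.46, and without HET 2 it was 0.01. Its exons overlap those of Ufsp2, at a mean of 43.2 RPM, and of Lrp2bp, at a mean of 2.37 RPM, both on the opposite strand. Lrp2bp had 2.67, 3.63 and 1.64 RPM in KO 1 to 3, against 3.43, 1.80 and 1.03 RPM in HET 1 to 3. Like Ankrd37, Lrp2bp was thus higher in KO 1, KO 2 and HET 1 than in KO 3, HET 2 and HET 3. Reads of the overlaps cannot be told apart.

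Ndrg1 encodes a stress-induced cytoplasmic protein long used as a marker of hypoxia (ENSMUSG00000005125.13, chromosome 15, 66929321 to 66969640). It had 131, 122 and 131 RPM in KO 1 to 3, against 96.0, 135 and 137 RPM in HET 1 to 3. HET 1 stood below the other 5, which ranged from 122 to 137 RPM. The means were 127.8 ± 5.22 RPM in KO islets and 122.7 ± 23.1 RPM in HET islets (n = 3 each, ± SD), which makes a log2 difference of 0.08 (-0.37 to 0.52). It turned to -0.09 without HET 1. Exons of Gm17035 (16.5 RPM) overlap Ndrg1 on the opposite strand. Of its relatives, Ndrg3 had a log2 difference of -0.15 (-0.68 to 0.39) and Ndrg4 of 0.19 (-0.43 to 0.82).

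Between libraries, the genes did not rise and fall as 1 block. Bnip3, Ddit4, Ankrd37 and Adm were higher in each of KO 1, KO 2 and HET 1 than in each of KO 3, HET 2 and HET 3. The margin was narrow for Ankrd37, with 4.35 RPM in KO 1 and 4.23 RPM in KO 3, and for Adm, with 13 reads in HET 1 and 8 in HET 3. The animal codes of the first 3 libraries are B114, B125 and B123, and those of the others B130, B126 and B127. What the codes stand for is not given, and this division of the libraries was already known from earlier results of these data, so it is described and not tested. Of the 7 genes that passed the filter, 3 were above in codes B114 to B125 and 0 below, against 16.8% above and 31.3% below over all genes tested. Heat shock, immediate early and acinar genes divided the libraries the same way, with 11 of 12, 11 of 13 and 10 of 10 tested members above. None of these genes was at 0 in all 6 libraries. Of 11 glucocorticoid-induced genes, 7 were above and 2 below. Heat shock genes summed to 1517 to 5025 RPM over KO libraries and 1098 to 5390 RPM over HET libraries, and immediate early genes to 254 to 3683 RPM and 218 to 5380.2 RPM for KO and HET. Glucocorticoid-induced genes summed to 874 to 1066 RPM over KO libraries and 1202 to 1813 RPM over HET libraries. These sums did not overlap between the groups, whereas each of the 11 genes did, and how often sums of other genes separate was not computed. The parts of these 4 lists in the levels of Bnip3, Ddit4, Ankrd37 and Adm were not tested. HET 1 had the highest level of Ankrd37 and the lowest of Slc2a1 and Ndrg1 among the 6 libraries. It also had the highest acinar sum, 31326 RPM, whose part in these values was not tested.

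**Figure D3:**
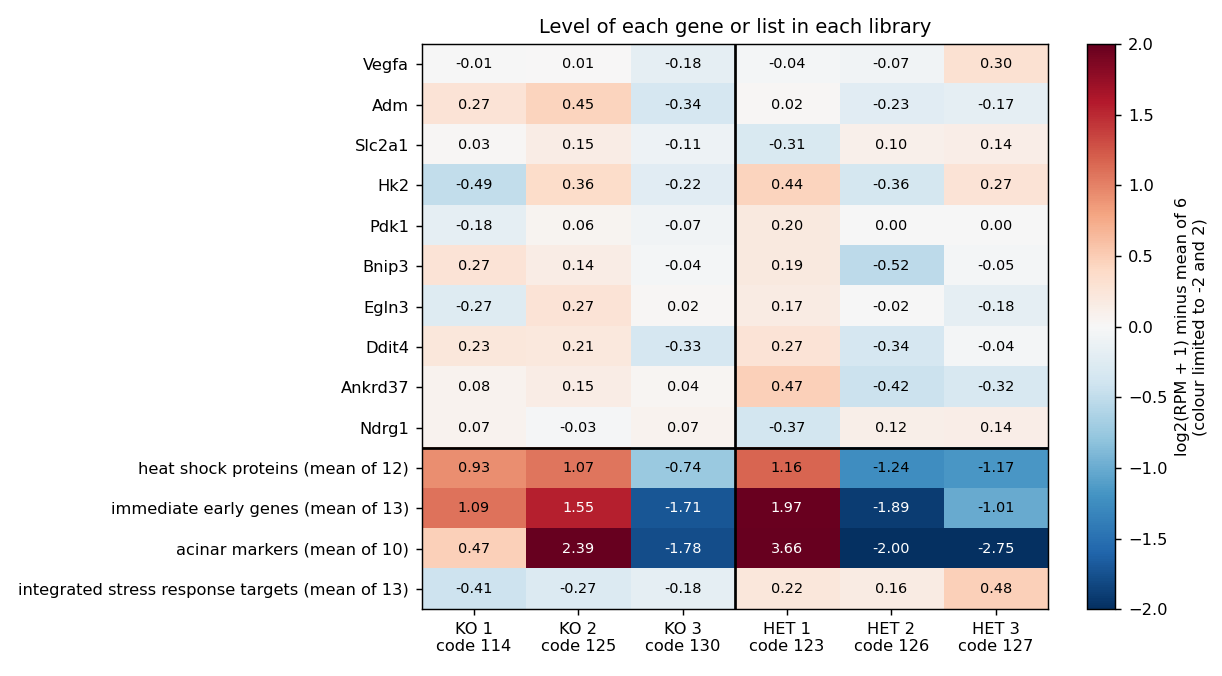
Level of each hypoxia-induced gene in each library, as log2(RPM + 1) minus its mean over the 6 libraries, above the means of 4 other gene lists on the same scale; KO columns stand left of HET columns. Ddit4 ranges from -0.34 to 0.27 and Vegfa from -0.18 to 0.30, while heat shock proteins range from -1.24 to 1.16 and acinar markers from -2.75 to 3.66.

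Compared within each range of codes, the genotypes again gave no common direction. Slc2a1 was higher in KO by 0.40 on the log2(RPM + 1) scale in codes B114 to B125 (KO 1 and KO 2 against HET 1) and differed by -0.23 in codes B126 to B130 (KO 3 against HET 2 and HET 3). Ndrg1 differed by 0.39 and -0.06, Ankrd37 by -0.36 and 0.41, Vegfa by 0.04 and -0.29, and Bnip3 by 0.02 and 0.24 in the same order. Pdk1 and Ddit4 were lower in KO in both, by -0.26 and -0.06 and by -0.05 and -0.14. Among the genes with few reads, Hk2 was also lower in both (-0.50 and -0.18). Adm differed by 0.34 and -0.14, and Egln3 by -0.17 and 0.11. Each of these values rests on a lone HET or KO library and has no test. With the code range as a block in limma, Ddit4 turned to a log2 difference of -0.10 and Egln3 to -0.03, and none of the hypoxia-induced genes was called.

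The spread over the 6 libraries was below the median of all genes tested (21.3%) for 6 of the 10 genes and above it for 4. Vegfa, Slc2a1, Pdk1 and Ndrg1 had coefficients of variation of 11.8%, 12.3%, 9.21% and 12.2%. Bnip3, Ddit4 and Ankrd37 had 18.4%, 19.3% and 28.0%, with highest-to-lowest ratios of 1.75, 1.55 and 2.17. Egln3, Hk2 and Adm, the genes with few reads, had 31.6%, 54.5% and 73.1%, with highest-to-lowest ratios of 2.38, 4.29 and 8.31, and counting error is part of those values.

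The HIF machinery upstream of these genes was also without a called difference. Hif1a, the oxygen-regulated subunit, had 49.95, 56.9 and 60.8 RPM in KO 1 to 3, against 45.9, 68.3 and 63.3 RPM in HET 1 to 3. HET 1 was lowest and HET 2 highest, with a log2 difference of -0.07 (-0.52 to 0.39). Epas1, which encodes HIF-2 alpha, had 28.0 ± 6.98 RPM in KO islets and 22.2 ± 7.43 RPM in HET islets (n = 3 each, ± SD), differing by 0.34 (-0.28 to 0.96). Their partner Arnt differed by 0.04 (-0.49 to 0.57) and Vhl by 0.09 (-0.35 to 0.53). Cul2, the scaffold of the VHL ligase, had 23.4 ± 3.15 RPM in KO islets and 30.3 ± 6.60 RPM in HET islets (-0.34, -0.83 to 0.14). Of 16 HIF subunits and regulators tested, 8 had a higher and 8 a lower mean in KO (median -0.01), and limma called none. HIF is regulated mainly through protein stability, which RNA levels do not measure.

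Other known HIF targets were spread to both sides of 0. Of 19 glycolytic targets, 11 had a higher and 8 a lower mean in KO (median log2 difference 0.01). Pgk1, phosphoglycerate kinase, had 50.8 ± 9.97 RPM in KO islets and 61.3 ± 11.5 RPM in HET islets (-0.27, -0.77 to 0.23), whereas Ldha, which turns pyruvate into lactate, had 12.3 ± 1.96 and 9.55 ± 1.93 RPM in KO and HET (0.35, -0.15 to 0.84). Several glycolytic genes have processed pseudogenes of near-identical sequence, and Gapdh was listed at 10.3 RPM in both groups, so the counts of this list are uncertain. The monocarboxylate exporter gene Slc16a3 differed by 0.58 (-0.38 to 1.54), and the highest of its libraries, KO 1, had 4.97 RPM. Slc2a3, encoding the neuronal-type transporter GLUT3, had 3.84, 3.80 and 3.13 RPM in KO 1 to 3, against 2.72, 2.48 and 2.44 RPM in HET 1 to 3. It was the only one of the 19 without overlap between the groups, a share near that of all genes tested, and limma did not call it.

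Of 35 further HIF targets tested, 20 had a higher and 15 a lower mean in KO (median 0.06), and limma called none of them. Ero1l, an ER oxidase that responds to both hypoxia and ER stress, had 34.1, 39.3 and 52.9 RPM in KO 1 to 3, against 37.0, 99.3 and 103 RPM in HET 1 to 3. KO 3 and HET 1 crossed, and the log2 difference was -0.79 (-1.72 to 0.14). Insig2, a regulator of cholesterol synthesis, was 1 of 35 without overlap between the groups, a smaller share than the 5.74% of all genes tested, at 36.7 ± 0.973 RPM in KO islets and 33.0 ± 2.13 RPM in HET islets (0.15, -0.19 to 0.49). Pgf, the placental growth factor, had 5.14 ± 0.855 RPM in KO islets and 3.81 ± 0.787 RPM in HET islets (0.36, -0.13 to 0.84). The collagen-modifying enzymes P4ha1 and P4ha2 differed by -0.08 and 0.20. Car9, a carbonic anhydrase that is almost silent without hypoxia in many tissues, was below the filter at 0.43 ± 0.166 RPM in KO islets and 0.553 ± 0.459 RPM in HET islets (n = 3 each, ± SD). The median of HIF targets outside glycolysis turned to -0.03 without KO 2, that of HIF subunits and regulators was -0.16 and that of glycolytic targets -0.24 without HET 1.

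**Figure D4:**
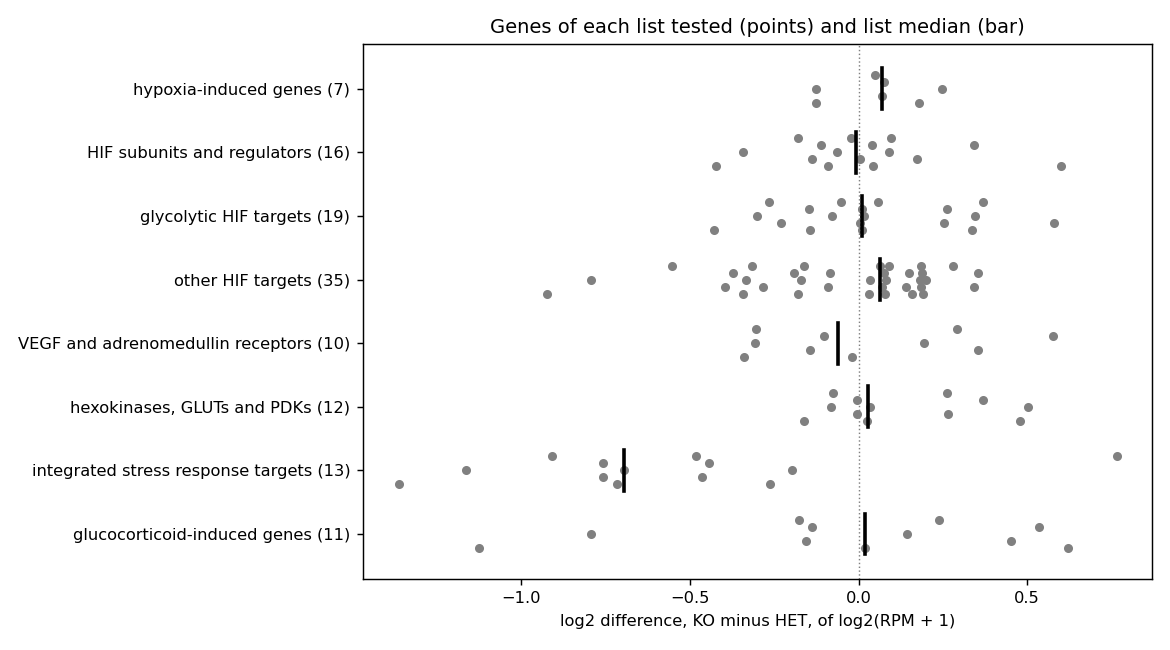
Log2 difference, KO minus HET, of log2(RPM + 1) for each tested gene (points) of 8 gene lists, with the number of genes in parentheses and the list median as a bar. The medians of the lists of hypoxia and HIF genes lie between -0.01 and 0.07, and that of integrated stress response targets lies at -0.69.

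Scaled to exon length, the 10 genes spanned a wide range in whole islets. Vegfa was highest, at 63.6 ± 4.46 RPKM, the RPM divided by the exon length in kilobases, in KO and 69.8 ± 10.3 RPKM in HET (SD, n = 3 each), and its lowest library stood above the highest library of any other. Ddit4, Ndrg1 and Bnip3 followed, at means of 23.2, 19.0 and 17.3 RPKM over the 6 libraries, with overlapping ranges. Slc2a1, at 7.87 RPKM, overlapped neither Bnip3 above it nor Ankrd37 below it. Ankrd37 and Pdk1 had means of 2.72 and 2.65 RPKM and overlapped. Egln3, Adm and Hk2 were lowest, at 0.298, 0.264 and 0.166 RPKM, and their ranges overlapped.

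Set beside their relatives, several hypoxia-induced genes had a more abundant relative in islets. In RPKM means over the 6 libraries, Slc2a1 stood at 7.87 against 50.5 for Slc2a2, and above Slc2a8 (3.66), Slc2a3 (0.423) and Slc2a4 (0.0543). Hk2 stood at 0.166 against 0.764 for Hk1 and 0.23 for Hk3, with Hkdc1 at 0.11. Egln3 stood at 0.298 against 9.22 for Egln1 and 14.9 for Egln2, and Adm at 0.264 against 4.04 for Adm2. Hk3 ranged from 0.0365 to 0.435 RPKM over the 6 libraries and overlapped Hk2. The ranges of each of these genes and its other more abundant relatives named here did not overlap. Pdk1 (2.65 RPKM) was below Pdk2 (4.78 RPKM) and Pdk3 (4.37 RPKM) without overlap. Pdk4 also had a higher mean than Pdk1 (4.38 RPKM), but their ranges overlapped. The reverse held for Vegfa (66.7 RPKM), which was above Vegfb (17.6 RPKM), and for Bnip3 (17.3 RPKM) above Bnip3l (9.05 RPKM), Ndrg1 (19.0 RPKM) above Ndrg3 (11.4 RPKM) and Ddit4 (23.2 RPKM) above Ddit4l (0.419 RPKM).

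**Figure D5:**
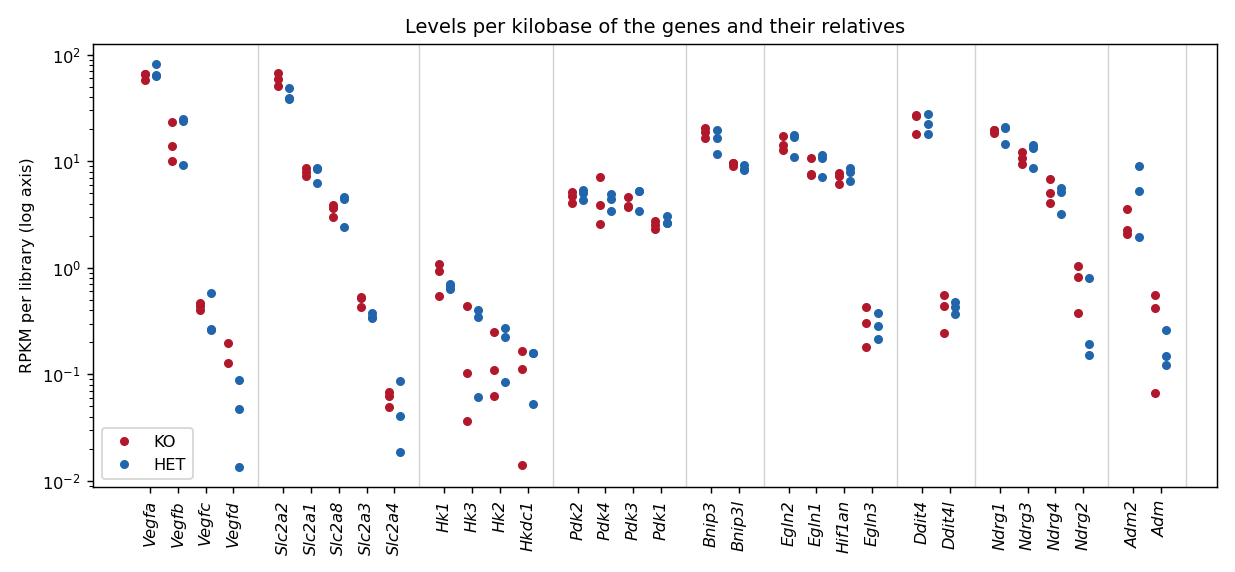
Levels of the hypoxia-induced genes and their relatives in RPKM on a log axis, 1 point per library, KO left of HET, grouped by family and sorted by mean; libraries at 0 are not drawn. Slc2a2 lies far above Slc2a1, and Vegfa lies above Vegfb, in both groups.

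The 5 genes whose levels followed the mean of the 7 tested hypoxia-induced genes most closely over the 6 libraries were Exd2, Firre, Cnksr1, Cbx3 and Lmbr1l. Pearson's r of log2(RPM + 1) was 0.997, 0.988, 0.977, 0.971 and 0.970 in that order, the highest among 8804 genes averaging 10 RPM or more. With 6 libraries and so many genes, values of this size are a description only. Exd2, an exonuclease gene, had 26.4, 28.1 and 22.3 RPM in KO 1 to 3, against 26.3, 20.2 and 25.6 RPM in HET 1 to 3. It was lowest in HET 2 and KO 3, as was the mean of the hypoxia-induced genes.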

How the data were processed

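HISAT2, DESeq2 and GRCm38 are named per the submitters' processing notes, without their roles. Versions, the counting program and strandedness were not found in the labels. The authors deposited 1 log2 value per gene and library. These were read as log2 RPM: the lowest value of each library was taken as 0.9 read, and 100% of 93649 values under 1000 reads then lay within 0.01 read of a whole number. The authors' deposited sheet of 3 genes with a corrected p-value holds none of the 10 genes. Gene positions equalled GENCODE M21 for 29429 genes (85.9%); exon lengths and identifiers come from it. That of Ndrg1 was matched by symbol, as its start differs.

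Groups follow the genotype labels; replicates were numbered in record order. Because the deposited values are log2 RPM, limma (3.58.1, R 4.3.3) with trend and robust options was fitted to log2(RPM + 1) of the 14238 genes averaging 1 RPM or more, with Benjamini-Hochberg adjustment and a threshold of 0.05. The fit was tested on simulated data. A value of 3 reads is 0.0845 to 0.109 RPM; such limits cover counting error only. Libraries carry separate animal codes, but the labels do not say whether animals were pooled, so p-values measure the spread between these libraries.

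The genes, lists and the division by animal code were chosen with earlier results of these data known. Named genes are the 10, fixed HIF pathway genes, the lowest p per direction in each list and the 5 most alike; the text gives part of them. Other genes in the text (such as Flt1, Calcrl, Bnip3l, Insig2, Gapdh, Phgdh, P4ha1 and P4ha2) were chosen after their values were seen. The values of 1 gene under that rule are not reported here. Alternatives covered scaling, filters, pseudocount, moderation, limma-voom, a block for animal codes and leaving out each library. Figures were drawn with matplotlib 3.10.9.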

Additional observations from a re-analysis of the deposited data

How the results depend on the processing

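Limma called 0 genes over all genes, and 0 of the hypoxia-induced genes or of any list that passed the filter, in each alternative run. The runs were median-of-ratios and upper quartile scaling, no filter, a filter of 5 RPM, a pseudocount of 0.25, no trend, limma-voom, the animal code block and each library left out. Adm, Egln3 and, where it averaged under 1 RPM, Hk2 could not enter these counts in runs with a filter. At an unadjusted p under 0.05, limma gave 250 genes and limma-voom 254, the code block 767, and limma 1704 without HET 1, 941 without KO 3, 564 with no filter and 80 without HET 3; the remaining alternatives lay between 83 and 283. With median-of-ratios scaling Egln3 turned to -0.0054; with the code block Egln3 turned to -0.027 and Ddit4 to -0.098, the median of the hexokinase, glucose transporter and pyruvate dehydrogenase kinase list moved to 0.11 and that of macrophage markers to -0.15. Leaving out 1 library gave ranges of -0.10 to 0.13 for Slc2a1, -0.12 to 0.15 for Egln3, -0.082 to 0.25 for Ddit4, -0.091 to 0.16 for Ndrg1, -0.19 to -0.0071 for Vegfa, -0.19 to -0.0596 for Pdk1, 0.052 to 0.41 for Bnip3, 0.012 to 0.46 for Ankrd37, 0.092 to 0.48 for Adm and -0.47 to -0.047 for Hk2. List medians then ranged from -0.0596 to 0.0856 for the hypoxia-induced genes, -0.19 to 0.054 for VEGF and adrenomedullin receptors, -0.16 to 0.032 for HIF subunits and regulators, -0.24 to 0.14 for glycolytic targets, -0.032 to 0.065 for other HIF targets, -0.025 to 0.16 for the hexokinase list, -1.01 to -0.37 for integrated stress response targets, -0.022 to 0.32 for delta and PP cell markers and -0.19 to 0.21 for macrophage markers. The cause was not tested. Ankrd37 could not be given with the filter of 5 RPM. The filter was applied anew in each run that left out a library, so the genes behind a list median could change. Without KO 1, KO 3 or HET 2, Hk2 was part of the median of the hypoxia-induced genes. No paired analysis was possible because the labels give no replicate numbers shared by KO and HET. Depth limits Adm, Egln3 and Hk2, which had 3 to 50 reads per library.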
